A study of Homo sapiens with 9 samples.

Results

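The genes described here are 42 growth factors, growth factor receptors and other surface receptors, and matrix and protease genes of wound repair, measured in HaCaT cells, an immortalised human keratinocyte line, after exposure to an extremely low frequency electromagnetic field (ELF-EMF). They were chosen by name as 10 ligands, 4 secreted proteins that modulate ligands, 14 receptors, 12 matrix and protease genes, and 2 further genes, the tumour suppressor NF2 and the secreted chaperone CLU. The microarray held 30968 probes, of which 17397 carried a single gene symbol, for 15207 genes in all. 40 of the 42 genes had a probe of their own name (42 probes, a pair each for VEGFB and IGF1R), and FGFR3 and EDNRA were not analysed here.

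Exposed cells received a 50 Hz field of 1 mT for 1 h inside a solenoid, and non-exposed cells were kept in an identical incubator without the field. Both groups were HaCaT cells that had been starved of serum and given serum again before the experiment. The incubator and the field cannot be told apart, and all cells came from 1 line. RNA of exposed and non-exposed cells was labelled with different dyes and hybridised together. 3 biological samples, named A, B and C, were each measured on 2 arrays where Cy5 marked the exposed RNA (Cy5-oriented) and on 1 dye swap where Cy3 marked it. Every value is a log2 ratio of exposed over non-exposed cells, with the dye swaps turned to the same direction, so a value above 0 means a higher signal in exposed cells. A ratio gives no level of a gene, and less RNA per cell cannot be told apart from fewer cells that carry it.

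Epidermal repair after wounding starts with growth factors such as transforming growth factor alpha and the epidermal growth factor family, which bind ERBB receptors on keratinocytes and drive their migration and division. Vascular endothelial and platelet-derived growth factors from keratinocytes act on vessels and fibroblasts of the dermis. Migrating keratinocytes lay down fibronectin and thrombospondin, and use the urokinase system and matrix metalloproteinases to open the matrix ahead of them, while tissue inhibitors of metalloproteinases (TIMPs) restrain those enzymes.

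The arrays left most probes without a value, and the step that removed them is not given in the sources used here. An array held between 1164 and 7250 values (3.76% to 23.4% of probes), and its median log2 ratio lay between -0.38 on the dye swap of sample B and 0.31 on the second array of sample C. The cells' identity was checked by which marker probes had a value on at least 1 array: 12 of 13 keratinocyte markers did, with the basal keratin KRT5 on 7 arrays and SFN on 8, but KRT14 on only 2 and TP63 on 1. Of other lineages, 1 of 7 fibroblast, 1 of 6 melanocyte, 1 of 4 endothelial and 1 of 4 immune markers had one.

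27 of the 42 genes had a value on at least 1 array. Their probes were measured more often than most: 28 of the 42 member probes had a value (66.7%), against 33% of all probes and 40.6% of probes with a gene name. The 13 genes that had a probe but no value on any array included 5 of the 10 ligands (VEGFC, EREG, FGF2, TGFB1 and TGFB2), 5 receptors (ERBB2, ERBB3, FGFR1, TGFBR1 and TGFBR2) and the metalloproteinases MMP1, MMP9 and MMP10. The chosen TGF-beta ligands and TGF-beta receptors were therefore all unmeasured, and of the chosen ERBB receptors only EGFR had a value. All 28 measured probes had a value on the second array of sample A, the array with the most values, and only 5 to 15 of them on each dye swap. In sample B, 10 of the 28 had no value at all, and CD44, EGFR, MMP14, PLAU and THBS1 had one on the dye swap alone.

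**Figure D1:**
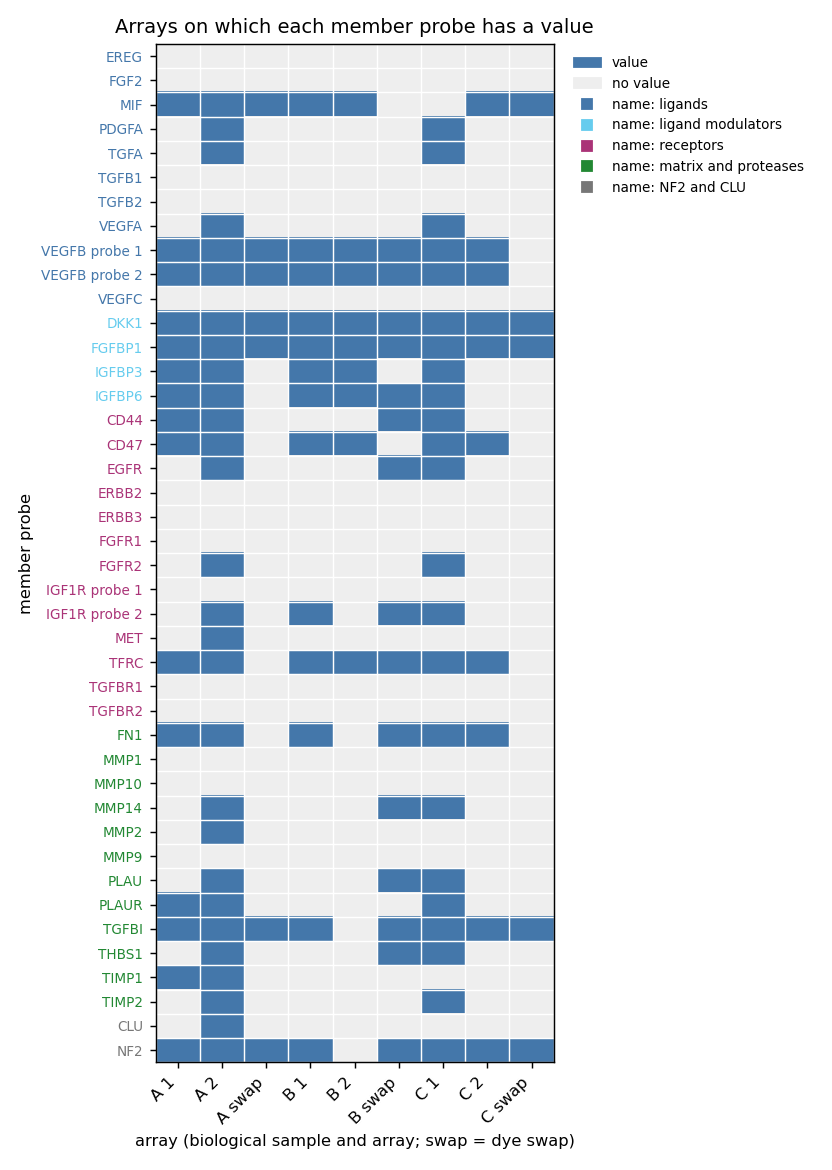
Arrays (columns, by biological sample A to C) on which each of the 42 member probes (rows, names coloured by role) had a value (blue) or none (grey). The second array of sample A held a value for 28 probes, and the dye swap of sample C for 5.

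A test of exposed against non-exposed cells that balances the dyes needs a probe with values in both orientations in all 3 samples, which 570 probes had, with 4 of the genes among them: DKK1, FGFBP1, NF2 and TGFBI. None of the 4 passed the test, which does not show that they were unchanged. Of all 570 probes, 0% were higher and 3.86% were lower in exposed cells at an adjusted p under 0.05 (limma, Benjamini-Hochberg over the 570), 22 probes in all. This background moved with the settings, to 4 higher and 13 lower with each array centred on its median, 1 higher and 39 lower without the second array of sample C, and 0 with each probe's own spread, and 0 of the 4 genes passed under any of them. At an unadjusted p under 0.05 the count was also 0 of 4, against 20.4% of all 570 probes. The standard error of 0.15 was shared by all probes in this fit, and the smallest change that passed the test was 0.48 on the log2 scale.

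DKK1, a secreted inhibitor of Wnt signalling, had values on all 9 arrays. Its log2 ratios with exposed RNA in Cy5 were 0.68 and 0.39 in sample A, 0.21 and 0.075 in sample B, and 0.11 and 0.023 in sample C, and its dye swaps gave 0.25, -0.28 and -0.096 in the same samples. Sample A was therefore high on each of its 3 arrays, and samples B and C had both signs. Relative to the array medians, sample B was also above 0 on each array, at 0.34, 0.42 and a dye swap of 0.10. Sample C kept both signs on that scale, at 0.25, -0.29 and a dye swap of 0.081. With each array centred the mean over samples was 0.21, which did not pass the test either. The mean was 0.10 ± 0.25 (SD, n = 3 samples), with a 95% interval of -0.20 to 0.40 and an adjusted p of 0.75 from limma.

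FGFBP1, a carrier protein that releases fibroblast growth factors from the matrix, gave 0.075 and -0.0072 in sample A, -0.013 and 0.040 in sample B, and 0.052 and 0.63 in sample C with exposed RNA in Cy5. Its dye swaps read 0.17, -0.12 and -0.31. As deposited, the second array of sample C stood apart from the other arrays of that orientation, while the dye swap of the same sample was the lowest of the 9. The median of that second array was itself 0.31. Relative to the array medians FGFBP1 was at 0.32 there, below 0.39 on the second array of sample B. The dye swap of sample C was still the lowest, at -0.14. Averaged over both orientations the ratio was 0.021 ± 0.078 (SD, n = 3 samples; interval -0.28 to 0.32; limma adjusted p = 0.967).

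NF2, which encodes the membrane-linked growth suppressor merlin, had 0.43, 0.27 and a dye swap of 0.27 in sample A. Sample B gave -0.020 on the first array and -0.062 on the dye swap, and sample C gave -0.32, 0.49 and a dye swap of 0.056. Only sample A had a single sign above 0. Relative to the array medians, sample B was also above 0 on both of its arrays, at 0.11 and a dye swap of 0.31. Sample C kept both signs on that scale, at -0.17, 0.19 and a dye swap of 0.23. With each array centred the mean over samples was 0.21, which did not pass the test either. The mean of 0.11 ± 0.18 (SD, n = 3 samples) had an interval of -0.19 to 0.41 and an adjusted p of 0.729 from limma, and it was 0.045 without the second array of sample C and 0.015 without sample A.

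TGFBI, a matrix protein induced by TGF-beta that binds integrins, lay closest to equal signal. Its Cy5-oriented values were 0.20 and 0.079 in sample A, -0.12 in sample B, and 0.050 and 0.37 in sample C, and its dye swaps gave -0.34, 0.019 and 0.0014. The mean was -0.014 ± 0.11 (SD, n = 3 samples; interval -0.32 to 0.29; limma adjusted p = 0.976). The sign of this mean turned under 8 of 18 alternative settings, all values staying between -0.11 and 0.092.

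The same 570 probes were tested for a dye effect, the part of the ratio that stays with the dye and not with the exposure. 7.54% of them had one at an adjusted p under 0.05 (limma), 7.19% toward Cy5 (41 probes) and 0.351% toward Cy3 (2 probes), and 0 of the 4 genes did. With each array centred on its median the counts were 21 toward Cy5 and 5 toward Cy3. The dye terms of DKK1, FGFBP1, NF2 and TGFBI were 0.14, 0.11, 0.042 and 0.11, with adjusted p from 0.431 to 0.848.

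A wider test took in every probe with a value in at least 2 of the 3 samples, whatever the orientation, and so held 23 of the genes (24 probes) among 5688 probes. Exposed and non-exposed cells could not be told apart at any of the 23 genes. The test called 0% of the 5688 probes higher and 0% lower at an adjusted p under 0.05 (limma; lowest adjusted p 0.883), and 0 of the 24 member probes reached an unadjusted p under 0.05, against 3.8% of all probes. Other settings did call probes, 90 lower and 0 higher with all 9 arrays and a dye term, 46 higher and 10 lower with the Cy5-oriented arrays alone, and 26 higher and 8 lower without the dye swap of sample B, but 0 members among them. The mean ratio was above 0 for 6 of the 23 genes (26.1%) and below 0 for 17, against 34.2% of all tested probes above 0. The median over the genes was -0.14, against -0.091 over all tested probes, and 10 of the 23 lay above that overall median. The median over the genes was -0.054 without the dye swap of sample B, -0.019 without sample B and -0.026 with each array centred. Over all tested probes the median was -0.054, -0.033 and -0.0068 under the same settings. With each array centred, 48.7% of all tested probes were above 0. Standard errors in this fit lay between 0.16 and 1.03 on the log2 scale.

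**Figure D2:**
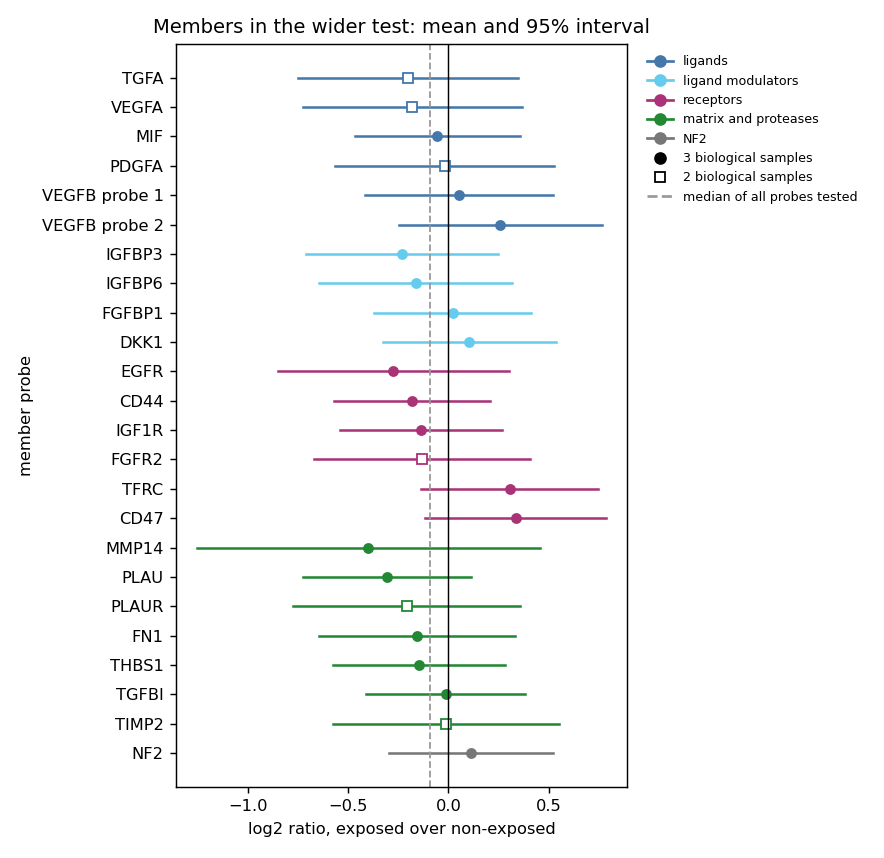
Mean log2 ratio of exposed over non-exposed cells (x axis) for the 24 member probes of the wider test, grouped by role, with the 95% interval of the limma fit. Filled circles rest on 3 biological samples and open squares on 2, the dashed line marks the median of all tested probes (-0.091), and all 24 intervals span 0.

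The 5 ligands that could be tested had means from -0.20 for TGFA to 0.16 for VEGFB, with 1 of the 5 above 0. VEGFB, a vascular endothelial growth factor that binds the receptor FLT1, was read by a pair of probes. The first gave 0.33, -0.062 and a dye swap of -0.13 in sample A, then -0.20, -0.67 and -0.11 in sample B, and 1.30 and -0.44 in sample C, where no dye swap was measured. The second gave 0.064, 0.65 and 0.23 in sample A, -0.23, -0.55 and 0.022 in sample B, and 1.21 and 0.13 in sample C. Both probes were thus highest on the first array of sample C, and were below 0 on both Cy5-oriented arrays of sample B. Repeat arrays of sample C differed by 1.74 for the first probe and 1.08 for the second, against a median difference of 0.334 over all probes of that sample. The probe means were 0.052 ± 0.35 and 0.26 ± 0.43 (SD, n = 3 samples each), with limma adjusted p of 0.961 and 0.883.

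MIF, a cytokine released by many epithelial cells, had a mean of -0.054 ± 0.18 (SD, n = 3 samples) from values that divided by dye. With exposed RNA in Cy5 its 5 values were all above 0, between 0.010 and 0.59, and both dye swaps were below 0, at -0.27 in sample A and -0.76 in sample C. VEGFA, the main angiogenic factor of keratinocytes, was measured on 1 array each of samples A and C, at -0.29 and -0.070. TGFA, the autocrine ligand of EGFR, gave -0.088 and -0.31 on the same arrays. PDGFA, a platelet-derived growth factor chain that acts on dermal fibroblasts, gave 0.085 and -0.12. None of these 3 ligands had a dye swap, so nothing in their ratios separates dye from exposure.

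All 4 ligand modulators were tested, DKK1 and FGFBP1 above 0 and the insulin-like growth factor binding proteins IGFBP3 and IGFBP6 below. IGFBP3, which holds insulin-like growth factors in the extracellular space, gave -0.39 and -0.20 in sample A, -0.29 and -0.85 in sample B and 0.17 in sample C. IGFBP6, which prefers insulin-like growth factor 2, gave 0.18 and 0.044 in sample A, -0.30, -0.24 and a dye swap of -0.91 in sample B, and -0.013 in sample C. In both, sample B was the lowest. Their means were -0.23 ± 0.37 and -0.16 ± 0.37 (SD, n = 3 samples each), with limma adjusted p of 0.883 and 0.896.

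Among the receptors, CD47 and TFRC lay above 0 and the other 4 that could be tested lay below. CD47, the membrane protein that binds thrombospondin and signals to phagocytes, had the highest mean of the 23 genes. Its log2 ratios were 0.26 and 1.12 in sample A, 0.18 and 0.11 in sample B, and 0.23 and 0.12 in sample C, all with exposed RNA in Cy5, since none of the dye swaps held a value. It was the 1 member above 0 on every array among those with at least 5 arrays, which held for 0.508% of the 1970 such probes, while 6.19% were below 0 on every array. These shares include probes with dye swaps, and each turned dye swap had a median below 0. They are therefore not matched to CD47. Relative to the array medians it was above on 5 of its 6 arrays and at -0.19 on the second array of sample C. The mean was 0.34 ± 0.31 (SD, n = 3 samples), a 1.26-fold ratio, with an interval of -0.12 to 0.79 and a limma adjusted p of 0.883, and without the second array of sample A it was 0.19.

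TFRC, the transferrin receptor that brings iron into dividing cells, gave 0.33 and 0.19 in sample A, 0.41, 0.45 and a dye swap of 0.78 in sample B, and 0.18 and -0.079 in sample C. It was above 0 on 6 of 7 arrays, and its dye swap pointed the same way as the other arrays of its sample. The mean was 0.31 ± 0.28 (SD, n = 3 samples; 1.24-fold; interval -0.14 to 0.75; limma adjusted p = 0.883). When all 9 arrays were fitted with a dye term it was 0.52 with a limma adjusted p of 0.067, the lowest of any member under any setting. That fit took each array as an observation, with the biological sample as a block because arrays of a sample share their RNA. The arrays and not the samples were still its units. The dye term of TFRC rested on its only dye swap, that of sample B.

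EGFR, the receptor for TGFA and other epidermal growth factors, was measured on 3 arrays, at 0.16 in sample A, -0.91 on the dye swap of sample B and -0.080 in sample C. The median of that dye swap was itself -0.38, and relative to it EGFR was at -0.53. Its mean over samples was -0.27 ± 0.56 (SD, n = 3 samples; interval -0.85 to 0.30). CD44, the hyaluronan receptor of basal keratinocytes, gave -0.46 and 0.14 in sample A, -0.25 on the dye swap of sample B and -0.13 in sample C, for a mean of -0.18 ± 0.065 (SD, n = 3 samples). It was below 0 in each sample mean, but its sample B value lay 0.12 above the median of that array.

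IGF1R, the insulin-like growth factor receptor, gave 0.033 in sample A, -0.33 and a dye swap of -0.065 in sample B, and -0.25 in sample C through 1 of its probes, and no value through the other. Its mean was -0.14 ± 0.15 (SD, n = 3 samples). FGFR2, whose epithelial form binds keratinocyte growth factor, gave -0.086 in sample A and -0.18 in sample C. MET, the hepatocyte growth factor receptor, had a single value of -0.26 on the second array of sample A and entered no test.

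The matrix and protease genes had the only group of roles with every tested mean below 0 (7 of 7), but 2 of the 7 lay above the median of all tested probes, none passed the test, and THBS1, TGFBI and TIMP2 were above 0 once each array was centred on its median. The median over the 7 was -0.16, and the 7 include PLAUR, a receptor grouped here with the protease it binds. MMP14, the membrane-anchored collagenase that migrating cells carry at their leading edge, had the lowest mean of the 23 genes and also the widest spread. It was measured on 1 array per sample, at -0.59 in sample A, -1.29 on the dye swap of sample B and 0.69 in sample C. The mean of -0.40 ± 1.01 (SD, n = 3 samples; a 0.759-fold ratio; interval -1.25 to 0.46; limma adjusted p = 0.883) became 0.050 without the dye swap of sample B.

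PLAU, the urokinase that activates plasmin at the cell surface, gave -0.31 in sample A, -0.51 on the dye swap of sample B and -0.10 in sample C. Each value was below 0, but relative to the medians of these arrays the last was 0.047 and the second -0.13. The mean was -0.31 ± 0.20 (SD, n = 3 samples; 0.809-fold; interval -0.72 to 0.11; limma adjusted p = 0.883). PLAUR, the urokinase receptor, was also below 0 on each of its 3 arrays, at -0.65 and -0.11 in sample A and -0.038 in sample C.

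FN1, which encodes fibronectin, gave 0.18 and 0.27 in sample A, 0.098 and a dye swap of -0.36 in sample B, and -0.43 and -0.69 in sample C. The mean was -0.16 ± 0.39 (SD, n = 3 samples). THBS1, thrombospondin 1, a ligand of CD47, gave 0.13 in sample A, -0.22 on the dye swap of sample B and -0.34 in sample C. TIMP2, an inhibitor that also helps MMP14 to activate MMP2, gave 0.16 in sample A and -0.18 in sample C. MMP2, a gelatinase, had -0.22 on the second array of sample A alone, TIMP1 had -0.38 and 0.044 on the arrays of sample A, and CLU had 0.75 on the second array of sample A. These 3 genes and MET had values in 1 sample only.

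**Figure D3:**
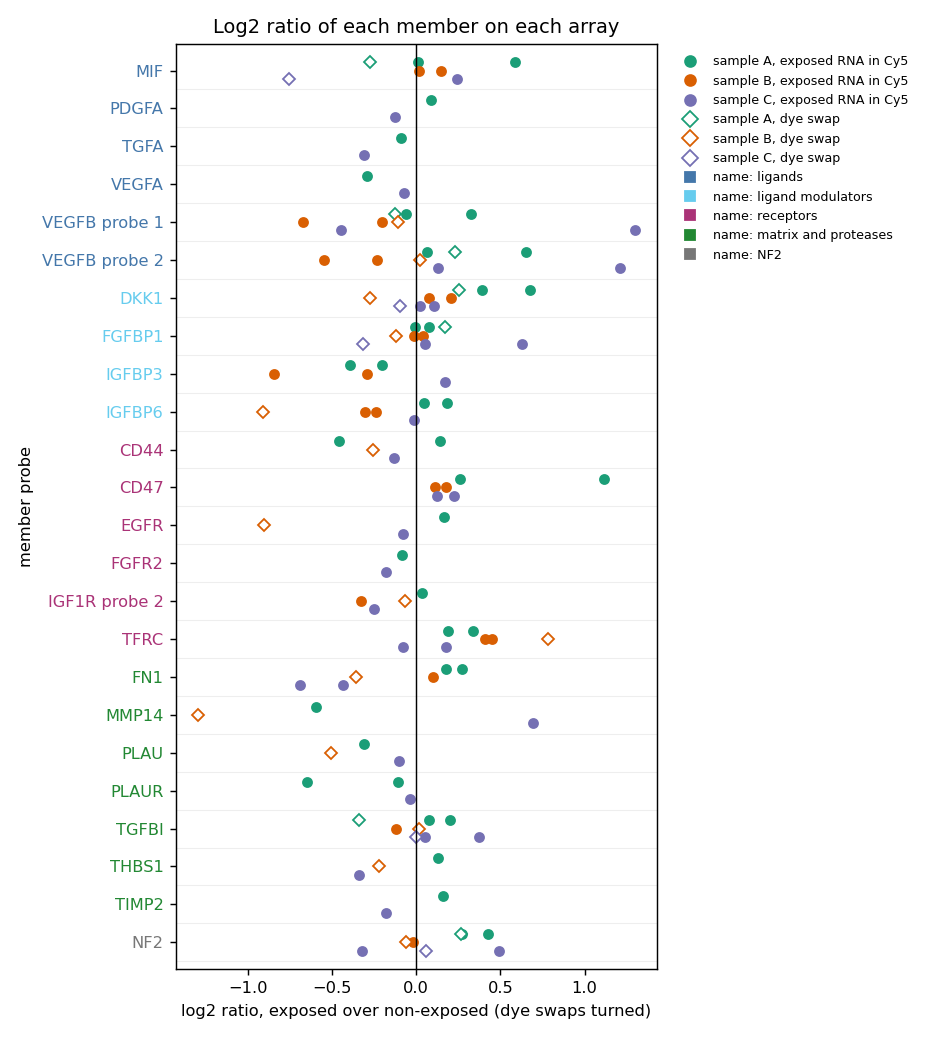
Log2 ratio of exposed over non-exposed cells (x axis) of each of the 24 member probes in the wider test on each array, coloured by biological sample, with filled circles for exposed RNA in Cy5 and open diamonds for turned dye swaps. CD47 lay to the right of 0 on all 6 of its arrays, while MMP14 ran between -1.29 and 0.69.

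The members' values differed from sample to sample. Over the 23 tested genes the median was 0.085 in sample A, with 14 of 23 above 0, -0.20 in sample B, with 3 of 17, and -0.070 in sample C, with 8 of 23. These shares of 60.9%, 17.6% and 34.8% stood against 58.9%, 25.1% and 36.6% of all probes in the wider test. Relative to the array medians, 12 of 23 members were above 0 in sample A, 12 of 17 in sample B and 15 of 23 in sample C (52.2%, 70.6% and 65.2%), against 49.6%, 53.7% and 45.6% of all probes, so the low count of sample B did not remain once its arrays were centred. Receptors had medians of 0.099, -0.20 and -0.10 in samples A, B and C, and matrix and protease genes -0.099, -0.22 and -0.10. Of the 17 genes with values in all 3 samples, CD47 and TFRC were above 0 in each, CD44 and PLAU were below 0 in each, and the other 13 had both signs. The same shares over all probes were not counted, so these signs do not set the genes apart from other probes. The arrays themselves had medians above 0 on both Cy5-oriented arrays of sample A and below 0 on all 3 arrays of sample B. Repeat arrays with exposed RNA in Cy5 differed by a median of 0.287 over 15 member probes in sample A, 0.132 over 9 in sample B and 0.322 over 9 in sample C.

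The members' ratios were also set side by side by dye orientation. Of the 16 member probes with values in both orientations, 14 had a lower mean on the turned dye swaps than on the Cy5-oriented arrays (87.5%, against 66.4% of the 3748 probes with both orientations), and 7 had opposite signs (43.8%, against 49.2%). Relative to the array medians, the dye swaps were lower for 6 of the 16 (37.5%, against 46.5% of all such probes). TFRC and IGF1R had the higher mean on the dye swap, at 0.78 and -0.065 on their dye swaps and 0.25 and -0.18 on the other arrays. EGFR (-0.91 on the dye swap and 0.042 on the others), MMP14 (-1.29 and 0.050) and MIF (-0.51 and 0.21) were among the probes that turned sign. For EGFR and MMP14, and for CD44, PLAU and THBS1, the dye swap came from sample B and the other arrays from samples A and C, so orientation and sample cannot be told apart in these 5. The other 11 probes had both orientations within a sample, and over those samples alone the dye swaps were lower for 7 of them (63.6%, against 61.1% of 2054 probes). The remaining 12 measured member probes had no dye swap at all.

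**Figure D4:**
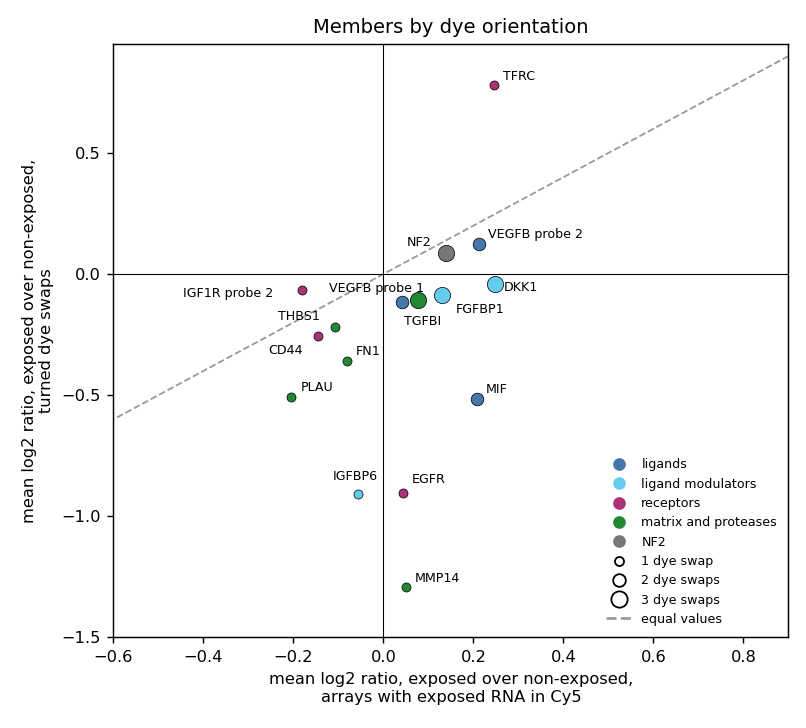
Mean log2 ratio of exposed over non-exposed cells on the turned dye swaps (y axis) against that on the Cy5-oriented arrays (x axis) for the 16 member probes measured in both orientations, with point size for the number of dye swaps. All points except TFRC and IGF1R lie below the dashed line of equal values, and for CD44, EGFR, MMP14, PLAU and THBS1 the 2 axes come from different samples.

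8 of the 42 genes are ones that the study listed as more expressed after exposure, and 7 of these could be tested. CD47, DKK1, NF2, TFRC and VEGFB had means above 0, and MIF and TGFBI below, with a median of 0.11 over the 7 and none past the test. Of the 16 tested genes outside that list, FGFBP1 alone had a mean above 0, and their median was -0.17. The list was chosen on these samples and is not independent evidence of a direction.

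Other genes of the same pathways were at hand for comparison, and none passed the test in either direction. In the wider test, 7 further genes of EGF family and ERBB signalling, among them the ligands HBEGF and NRG1 and the sheddases ADAM10 and ADAM17, had a median of -0.12 with 1 above 0 and 6 below. TGF-beta signalling was represented by 4 genes (BMPR1A, SMAD2, SMAD3 and SMAD4, on 6 probes) with a median of -0.054, and the VEGF, PDGF, FGF, IGF and hepatocyte growth factor systems by another 4 with a median of -0.091. Of 23 probes for 21 integrin, laminin and focal adhesion genes, 5 were above 0 and 18 below, with a median of -0.14. Of 14 further proteases and inhibitors, 6 were above 0 and 8 below with a median of -0.047. The collagenase MMP13 had the 1 unadjusted limma p under 0.05 of these lists. Its mean was 0.83 ± 0.76 (SD, n = 2 samples), with a limma adjusted p of 0.883.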

How the data were processed

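The authors hybridised RNA of exposed and non-exposed HaCaT cells to 2-colour oligonucleotide arrays, scanned them and deposited 1 table of log2 ratios per array, normalized by the scanner's software with a method not given in the sources used here. The scale was read from the deposited values, of which 86.6% to 99.1% per array were log2 values of ratios in whole thousandths (within 0.05 of a thousandth), while the labels' dyes gave the direction. Depth has no counterpart here, and the number of arrays limits precision. Arrays of 1 sample were averaged within each dye orientation, both orientations were averaged with the swap turned, and samples A, B and C entered as n = 3 in limma 3.58.1 (R 4.3.3) with Benjamini-Hochberg adjustment over all probes tested (threshold 0.05). The methods describe the samples as biological replicates and give results in general as means of independent experiments. The p-values draw on the spread between these replicates, which limma shares in part or in full across probes. In the dye-balanced test all probes had the same standard error, so its p-values do not measure each gene's own spread. A dye fit used all 9 arrays with the sample as a block (consensus correlation -0.078). Gene names came from the platform's annotation: 17397 probes had 1 symbol, 0 had several and 13571 had none, and 84.3% of symbols were current (99.5% with synonyms). Members and lists were chosen with earlier results of these data known. Values by array were given for members in the dye-balanced test, with a mean of at least 0.3 in size, with 1 sign on at least 5 arrays, or with more than 1 probe; values of the remaining members were added after they had been seen. Scripts were tested on simulated data.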

Additional observations from a re-analysis of the deposited data

Results flagged for a closer look

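Within the arrays that had exposed RNA in Cy5, 12 member probes had 4 to 6 values. As deposited, 2 of them had 1 array far from the others. Chance gives such a gap in about 1 in 20 groups of independent values. These arrays are repeats of 3 samples, and their values were not centred on the array medians. CD47 read 1.12 on the second array of sample A, against 0.26 on the nearest array and 0.11 on the lowest. FGFBP1 read 0.63 on the second array of sample C, against 0.075 on the nearest and -0.013 on the lowest, while the turned dye swap of that sample read -0.31. Relative to the array medians, FGFBP1 was at 0.32 on the second array of sample C and higher, at 0.39, on that of sample B. CD47 was still highest on the second array of sample A, at 1.05, with 0.46 on the second array of sample B next. The gaps were not tested on this scale.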

How the results depend on the processing

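Under each alternative, including leaving out sample A, B or C, 0 members passed the dye-balanced, wider or dye effect test. Over all probes the dye-balanced calls (22) ran from 0 with each probe's own spread or second arrays to 40 without the second array of sample C, and from 3 to 10 without 1 sample; the wider calls (0) ran up to 90, with 23 without sample B and 2 without sample C; the dye effect calls (43) ran down to 18 without sample B. Of 370 member values under alternatives, 332 kept their sign and none passed the threshold. The other 38 turned sign, and the cause was not tested beyond the settings' own construction. 11 of 24 probes kept their sign throughout (CD44, CD47, FGFR2, IGF1R, IGFBP3, NF2, PLAUR, TFRC, TGFA, VEGFA and the second VEGFB probe). Some settings could not turn a sign, such as each probe's own spread, or unturned dye swaps for probes that had none. FGFR2, TGFA and VEGFA were below 0 on both of their arrays. These counts are therefore no measure of stability. With the dye swaps not turned, MMP14 was 0.47, EGFR 0.33, IGFBP6 0.14, MIF 0.29, THBS1 0.0022, TGFBI 0.092 and PLAU 0.032, and the medians were 0.026 over all members, 0.017 over receptors and 0.0022 over matrix and protease genes. With exposed RNA in Cy5 only, MMP14 was 0.050, EGFR 0.042, MIF 0.21 and TGFBI 0.078, and the matrix and protease median -0.081. With dye swaps only, DKK1 was -0.040, the first VEGFB probe -0.12, FGFBP1 -0.087 and the ligand median -0.26. With each array centred on its median, THBS1 was 0.0074, TGFBI 0.079, PDGFA 0.021 and TIMP2 0.029. With 9 arrays and a dye term, the first VEGFB probe was -0.042, TGFBI 0.0086 and the median of all members 0.0048. That median rested on 11 genes; it was 0.062 over the 2 genes with values on all 9 arrays, and the ligand median was 0.051 over the 2 ligands with values in all 3 samples. The plain mean of the arrays gave 0.024 for TGFBI. First arrays with the dye swaps gave -0.024 for FGFBP1, 0.13 for the ligand median and -0.29 for the matrix and protease median; second arrays gave -0.31 for the first VEGFB probe, 0.025 for TGFBI and -0.26 for that median. Leaving out 1 sample in turn gave -0.94 to 0.050 for MMP14, -0.041 to 0.19 for DKK1, -0.49 to 0.042 for EGFR, -0.14 to 0.21 for the first VEGFB probe, -0.30 to 0.050 for IGFBP6, -0.12 to 0.046 for MIF, -0.35 to 0.047 for FN1, -0.074 to 0.028 for TGFBI, -0.019 to 0.058 for FGFBP1, -0.12 to 0.036 for the ligand median and -0.30 to -0.074 for the matrix and protease median. Chosen after seeing the data, leaving out the dye swap of sample B gave 0.050 for MMP14, 0.042 for EGFR, -0.0032 for the first VEGFB probe and -0.081 for the matrix and protease median. Leaving out the second array of sample A gave 0.071 for the ligand median and -0.29 for the matrix and protease median. Leaving out that of sample C gave -0.027 for FGFBP1 and -0.18 for the ligand median. Several ligand medians rested on 2 ligands, against 5 in the main fit. These were the medians with dye swaps only, with first arrays, without sample A and without the second array of sample A. In them the change of genes and the change of setting cannot be told apart. Each ratio already pairs exposed with non-exposed RNA of 1 sample, so the tests are paired as they stand. No paired analysis was possible because, beyond these ratios, no separate exposed and non-exposed values were left to block.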
